A study of Mus musculus with 20 samples.

Results

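The genes described here encode the proteins of the cytosolic ribosome, and they were followed in endothelial cells of mouse skeletal muscle. Members were all genes that the mouse GENCODE annotation types as protein-coding and whose symbol is Rpl, Rps or Rplp followed by a number and the usual suffix letters, together with Rpsa. The rule gave 81 of the 42374 genes in the summed tables, 31 with small-subunit symbols and 50 with large-subunit or stalk symbols. Of these, 80 passed the filter on low counts and were tested, while Rpl10l, a testis-restricted copy, had too few counts. The rule leaves out ribosomal proteins with other symbols, such as Fau and Rps3a1, some of which are given near the end.

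A ribosome has a small subunit, which reads the mRNA, and a large subunit, which joins amino acids and carries the flexible P stalk (Rplp0, Rplp1 and Rplp2) that recruits elongation factors. The mRNAs of these proteins are abundant and short, and most begin with a run of pyrimidines, the 5′ terminal oligopyrimidine (TOP) tract, through which mTORC1 governs their translation. ATF4 is the main transcriptional effector of the integrated stress response and turns on genes of amino acid synthesis and uptake and of tRNA charging.

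RNA came from muscle endothelial cells sorted as CD31-positive and CD45-negative from C57BL/6N mice, out of the soleus, labelled oxidative, or the extensor digitorum longus, labelled glycolytic. Mice either lacked Atf4 in endothelial cells (ECKO) or were Cre-negative littermates (WT). All mice, the controls included, received 1 mg tamoxifen daily over 5 days at 8 to 10 weeks of age and then at least 7 days without it. The sources used here do not name the Cre driver. The 4 groups, glycolytic WT, oxidative WT, glycolytic ECKO and oxidative ECKO, held 5 libraries each. The labels do not say which animals stand behind a library, so p-values reflect the scatter among these libraries alone, and part of it may be technical. Library totals ran from 8013223 to 21720127 estimated counts. Atf4 itself lay between 243 and 589 CPM in the 10 WT libraries and at most at 8.7 CPM in the 10 ECKO libraries. CPM are counts scaled to the library's TMM-adjusted total, and TPM are the deposited levels per transcript length, scaled to the same sum in every library. All 10 endothelial markers, such as Pecam1 and Cdh5, were present in every group, with a summed level between 7722 and 9556 CPM. The 10 WT libraries carried Y-linked RNA and nearly no Xist. The 5 glycolytic ECKO libraries and oxidative ECKO libraries 4 and 5 carried Xist and at most 1.55 CPM of Y-linked RNA, and oxidative ECKO libraries 1 to 3 carried both. Every oxidative ECKO library held at least 17.965 CPM of Xist, against at most 0.274 CPM in oxidative WT libraries. Y-linked RNA was at most 65.6 CPM in oxidative ECKO and at least 106.8 CPM in oxidative WT libraries. In both muscles, genotype and sex-linked RNA therefore cannot be told apart.

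RefSeq promoter sequences of GRCm38.p6 matched 61 of the 81 members. In a window from 10 bases before to 20 bases after the annotated start, on the gene's own strand, the letters CTTTCC, a pyrimidine run of the TOP kind, stood in 10 of these 61 genes (16.4%) and in 412 of 27025 genes with a promoter sequence (1.52%). Over the full 300 bases and on either strand, CTTTCC was found in 54.1% of members and 29.3% of all genes. The letters TTGCATCA, a form of the element that ATF4 binds with C/EBP partners, were searched on both strands of the same 300 bases and stood in 0 of 61 members and in 1.03% of all genes. These 4 start windows are shown because they hold the pyrimidine run, which most of the 61 members lacked in this window. Capitals mark CTTTCC.
Rps27, chr3:90213629-90213658, minus strand: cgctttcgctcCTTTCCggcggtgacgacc
Rpl15, chr14:18270967-18270996, minus strand: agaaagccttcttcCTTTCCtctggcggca
Rpl18, chr7:45718061-45718090, plus strand: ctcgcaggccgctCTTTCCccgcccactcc
Rpl38, chr11:114668570-114668599, plus strand: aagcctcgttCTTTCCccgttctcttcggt
In the tests described below, 9 of the 10 members with the run were lower in oxidative ECKO than in oxidative WT libraries, near the share over all tested members (75 of 80). In glycolytic ECKO 1 of the 10 was higher and 5 were lower, against 11 and 39 of all 80 tested members. In oxidative against glycolytic WT muscle 3 of the 10 were higher, against 37 of 80.

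Many members also have near-identical copies elsewhere in the genome. In 20 of the 80 tested members more than 50% of all 31-base stretches of the leading transcript also occur in another gene, and in 45 fewer than 10% do. The family around Rps27 shows both cases, and its first 60 coding bases are given with capitals where Rps27l differs from Rps27.
Rps27, chromosome 3: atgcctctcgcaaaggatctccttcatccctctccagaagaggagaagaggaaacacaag
Rps27rt, chromosome 9: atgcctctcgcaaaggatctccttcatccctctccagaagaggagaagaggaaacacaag
Rps27l, chromosome 9: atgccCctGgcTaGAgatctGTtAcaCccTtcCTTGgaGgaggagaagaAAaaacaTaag
The coding sequences of Rps27 and Rps27rt, an intronless copy that the rule leaves out, differ at 0 of 252 bases, so reads could be split between them in either way. Rps27l, a paralog that p53 is known to induce, differs from Rps27 at 60 of 252 coding bases and shares none of its 31-base stretches. Rpl10 and its copy Rpl10-ps3 differ at 0 of 642 coding bases.

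Per transcript length, members were among the most abundant RNAs of these cells. The median level of the 78 members with at least 4 CPM was 1155 TPM against 9.41 TPM for all genes tested, and 34 of the 100 genes with the highest TPM were members. The highest was Rps27 at 4921 TPM over all libraries, followed by Rps29 at 4318 TPM and Rplp1 at 3621 TPM. Rps28, Rpl41, Rpl34, Rpl13, Rpl13a and Rpl32 were also among the first 10, which reached down to 2003 TPM. Within groups, libraries lay close together. The median coefficient of variation of a member was 6.14% in glycolytic WT, 3.39% in oxidative WT, 4.34% in glycolytic ECKO and 5.28% in oxidative ECKO libraries. The widest spread, 21.1%, belonged to Rpl35 in glycolytic WT, a member with 96.5% of its 31-base stretches in other genes.

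Taken as one pool, the 81 members held 3.97% ± 0.168 of all counts in glycolytic WT, 3.93% ± 0.163 in oxidative WT and 3.92% ± 0.0712 in glycolytic ECKO libraries, but 3.42% ± 0.0973 in oxidative ECKO libraries (SD, n = 5 each). The 5 oxidative ECKO libraries, with 3.46%, 3.37%, 3.36%, 3.33% and 3.57%, all lay under the lowest other library, at 3.76%. In bulk samples fewer cells of a type and less RNA per cell cannot be told apart. Mitochondrially encoded genes moved between the same groups, from 5.95% of counts in glycolytic WT to 12.8% in oxidative WT, 5.58% in glycolytic ECKO and 8.86% in oxidative ECKO libraries. With mitochondrial genes and the abundant gene CT010467.1 left out of the total, the members' share was 4.78%, 5.17%, 4.64% and 4.22% in the same order of groups. On that scale oxidative WT stood above glycolytic WT, and oxidative ECKO was again lowest, its highest library at 4.34% and the lowest other one at 4.49%. In TPM the members' share was 11.0%, 10.1%, 10.8% and 9.54% in the same order, so oxidative WT lay below glycolytic WT. Oxidative ECKO had the lowest mean there, but its libraries, at 9.28% to 10.1%, overlapped those of oxidative WT, at 9.51% to 10.6%.

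**Figure D1:**
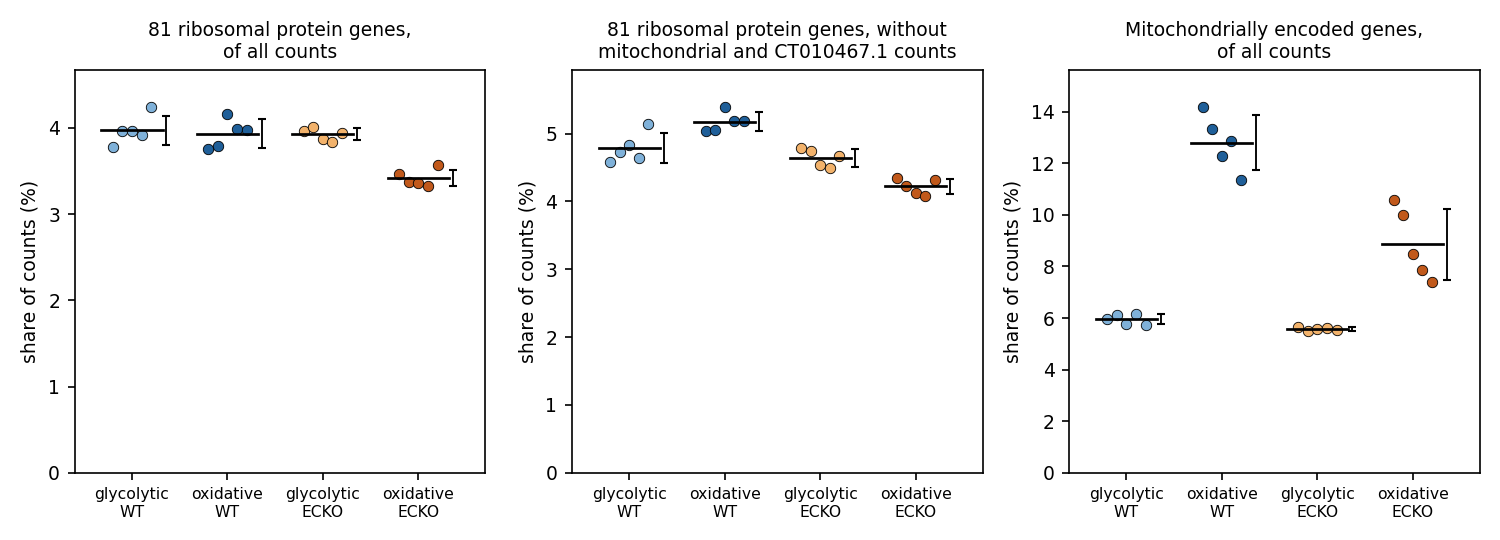
Share of counts (%, y axis) in each of 20 libraries by group, for the 81 members of all counts, for the members without mitochondrial and CT010467.1 counts, and for mitochondrially encoded genes. Points are libraries, lines are means and bars are SD (n = 5); oxidative ECKO, with means of 3.42% and 4.22%, is lowest in both member panels.

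The first comparison asked how endothelium of oxidative muscle differs from that of glycolytic muscle in WT mice. Ribosomal protein mRNAs were slightly higher in oxidative muscle: 37 of 80 tested members rose and 0 fell at an adjusted p below 0.05 (edgeR's quasi-likelihood test, Benjamini-Hochberg over 13971 genes), against 16.4% of all genes called higher and 15.9% called lower. The members' median log2 fold change was 0.11 and that of all genes -0.00. In 25 members all 5 oxidative libraries lay above all 5 glycolytic ones, against 12.1% of all genes, and in 0 below them, against 11.0%. Scaling by plain library totals, which moves the median of all genes by -0.13, gave 8 higher and 18 lower members with a median of -0.02, so without a composition factor the direction of the median turned, though it lay above that of all genes. RLE and upper-quartile factors gave 37 and 36 higher and 0 lower members.

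The largest rises in oxidative WT muscle belonged to members of both subunits. Rps27l rose by 0.50 ± 0.058 on the log2 scale (± is the standard error of the fit; adjusted p = 1.53e-07). Rps15a, a protein of the small subunit body, rose by 0.42 ± 0.06 (adjusted p = 3.83e-06), and Rpl34, a large-subunit protein, by 0.40 ± 0.044 (adjusted p = 6.8e-08). Rps12 and Rpl23 rose by 0.31 and 0.26. Rpl5, which carries the 5S ribosomal RNA and can bind Mdm2, rose by 0.26 (adjusted p = 0.0221), a call that was lost without glycolytic WT library 1 (adjusted p = 0.0561). Rpl12 headed the list with 0.60 and is taken up with its copy below.

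The comparison of the muscles in ECKO mice gave the opposite sign. Of 80 members 39 were lower in oxidative than in glycolytic ECKO endothelium and 0 were higher, against 10.1% and 8.31% of all genes, with a median of -0.15. All 5 oxidative libraries lay under all 5 glycolytic ones in 36 members and above them in 0, against 7.59% and 5.66% of all genes. Of the markers of other cell types, 10 of 14 tested immune, 11 of 16 fibre, 2 of 8 fibroblast and 5 of 5 erythroid genes were higher in oxidative ECKO muscle, with 1 immune and 1 fibre gene lower, while 4 of 9 pericyte and smooth muscle genes were lower and 4 of 10 endothelial genes higher. Their part in the members' falls was not tested. Oxidative ECKO libraries 1 to 3 held 32.2 to 65.6 CPM of Y-linked RNA, and glycolytic ECKO libraries at most 1.55 CPM. The part of this difference in the falls was not tested either. Rps18, a protein of the subunit head, fell by 0.36 ± 0.038 (adjusted p = 1.19e-07), Rps2 by 0.34 ± 0.054 and Rpl30 by 0.33 ± 0.043. Rplp1 of the P stalk and Rpl38 both fell by 0.31. All 3 stalk genes were lower, and Rplp0 and Rplp2 fell by 0.21 and 0.24. Under the offset for effective transcript length 24 members were called lower.

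**Figure D2:**
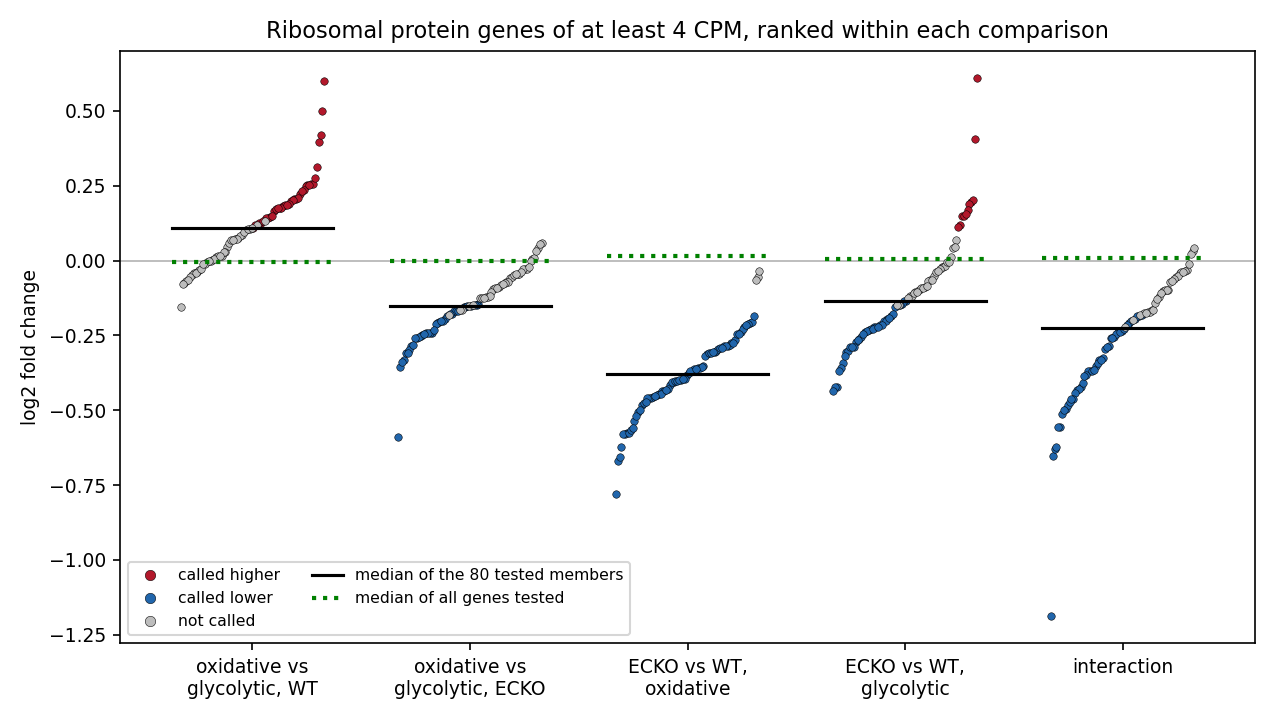
Log2 fold change (y axis) of the 78 members of at least 4 CPM in 5 comparisons, ranked from low to high within each. Points are members coloured by call, black lines the median of the 80 tested members and dotted lines the median of all genes tested; the members' medians are 0.11, -0.15, -0.38, -0.14 and -0.22 from left to right.

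Deletion of Atf4 in oxidative muscle was the comparison in which the module moved most uniformly. Of 80 tested members 75 were lower in ECKO than in WT libraries and 0 were higher, against 17.4% and 14.6% of all genes, and the median was -0.38 against 0.02. In 73 members all 5 ECKO libraries lay under all 5 WT libraries, against 12.0% of all genes, and in 0 above them, against 8.20%. Both subunits were represented, with 30 of 31 small-subunit, 42 of 46 large-subunit and 3 of 3 stalk genes lower. Members with fewer than 10% shared 31-base stretches counted 42 of 45 lower at a median of -0.38, and those with more than 50% counted 18 of 20 at -0.42.

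Rps15a showed the largest fall among members of at least 4 CPM. Its level was 461, 458, 504, 491 and 477 CPM in the oxidative WT libraries and 303, 269, 252, 281 and 289.7 CPM in the oxidative ECKO libraries. The groups were far from overlapping, and the log2 fold change was -0.78 ± 0.06 (adjusted p = 9.12e-11). In glycolytic muscle Rps15a had 358 CPM ± 36.2 in WT and 323 CPM ± 17.2 in ECKO (SD, n = 5), with overlapping libraries and no call (-0.15, adjusted p = 0.0657).

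Rpl34 followed. Its oxidative WT libraries held 638, 673, 682, 643 and 661 CPM, and its oxidative ECKO libraries 447, 419, 402, 398 and 406 CPM. Every WT library exceeded every ECKO library (log2 fold change -0.67 ± 0.044, adjusted p = 3.67e-12). In glycolytic muscle the means were 501 CPM ± 23 in WT and 495 CPM ± 18 in ECKO, with no call (-0.02, adjusted p = 0.796).

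Rps26 lines the channel through which mRNA leaves the small subunit. It held 379, 365, 386, 366 and 355 CPM in oxidative WT and 251, 241, 210.4, 229.8 and 241 CPM in oxidative ECKO libraries, which did not overlap (-0.66 ± 0.049, adjusted p = 4.19e-11). In glycolytic muscle the libraries stood apart as well, with 341 CPM ± 21.4 in WT and 264 CPM ± 6.7 in ECKO (-0.37 ± 0.049, adjusted p = 1.66e-06). Rpl4, a protein of the nascent-chain exit tunnel, fell in both muscles too. It went from 910.1 CPM ± 18.5 to 609 CPM ± 24.6 in oxidative muscle (-0.58, adjusted p = 6.79e-11) and from 788 CPM ± 47.9 to 621 CPM ± 18.5 in glycolytic muscle (-0.34, adjusted p = 1.02e-06). Rps25, which many viral internal ribosome entry sites require, fell by 0.58 and 0.36 in oxidative and glycolytic muscle, and Rpl32 by 0.62 and 0.24. Only 5 members were not called in oxidative muscle. Rpl3 and Rps2 had log2 fold changes of -0.04 and -0.07, Rpl10, which shares its coding sequence with a copy, had -0.06, and Rpl3l and Rpl39l lay near 1 CPM. Scaled by plain library totals, 62 members were lower and 1 was higher, Rpl3 (0.12, adjusted p = 0.0159), while the median of all genes moved by 0.17.

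RNA of other cell types moved in the same comparison. All 14 tested immune markers of 15 were lower in oxidative ECKO, and their summed level was 341 to 447 CPM in oxidative WT, 69.4 to 115 CPM in oxidative ECKO, 44.3 to 52 CPM in glycolytic WT and 45.7 to 51.3 CPM in glycolytic ECKO libraries. None of these markers was at 0 in every library of a group, and Ptprc, which encodes CD45, lay between 1.9 and 3.46 CPM in oxidative WT libraries. Of 16 muscle fibre markers 9 rose in oxidative ECKO, and their sum went from 123 to 248 CPM in WT to 233 to 316 CPM in ECKO libraries. All 5 erythroid markers fell, with sums of 4400 to 6752 CPM in WT and 2506 to 4276 CPM in ECKO libraries, and the 8 fibroblast markers, none of them called, summed to 139.7 to 329 and 61.9 to 428 CPM. Of 9 pericyte and smooth muscle markers 5 rose and 0 fell, with sums of 582 to 683 CPM in WT and 772 to 1194 CPM in ECKO libraries, and of 10 endothelial markers 3 rose and 2 fell. In the WT muscle comparison above, 14 immune, 14 fibre, 8 fibroblast and 5 erythroid markers were higher in oxidative muscle, 1 fibre marker and 4 of 9 pericyte and smooth muscle markers were lower, and of 10 endothelial markers 5 were lower and 1 was higher. The part of these cells in either result was not tested. Oxidative ECKO libraries 4 and 5 alone, with 0.932 and 1.1 CPM of Y-linked RNA, gave 74 lower members. Libraries 1 to 3 alone, with 32.2 to 65.6 CPM, gave 75. These 2 splits were chosen after the data had been seen. Both parts carried Xist and less Y-linked RNA than any oxidative WT library, so the splits cannot separate genotype from sex-linked RNA.

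The deletion in glycolytic muscle gave more falls than rises. Of 80 members 39 fell and 11 rose, against 15.1% and 13.9% of all genes, and the median was -0.14. The share of members that rose, 13.75%, was thus near that of all genes. Without the filter on low counts 5 members were called higher, and with the effective-length offset 7. The members that rose were Rpl12, Rpl18, Rpl19, Rpl3, Rpl30, Rpl7a, Rps18, Rps2, Rps27l, Rps6 and Rpsa. In 8 members all 5 ECKO libraries lay above all 5 WT libraries, and in 21 below them, against 10.6% and 11.9% of all genes, so the share that stood apart upward was near that of all genes.

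Rps2, a protein near the mRNA entry of the small subunit, had the largest called rise after Rpl12. It held 987, 993, 994, 1013 and 996 CPM in glycolytic WT and 1270.4, 1324, 1324, 1353 and 1333 CPM in glycolytic ECKO libraries. The groups were widely separated (0.41 ± 0.054, adjusted p = 1.66e-06). In oxidative muscle the libraries overlapped, with 1022, 1082, 1171, 1075 and 1110.4 CPM in WT and 1132, 1119, 1094, 876 and 997 CPM in ECKO. Rps2 shares 82.0% of its 31-base stretches with other genes, but its closest copy, Rps2-ps10, held at most 3.65 CPM in any library.

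Rpl30, whose yeast counterpart is known to control the splicing of its own transcript, moved in opposite directions. It held 506, 479.6, 471, 466 and 471 CPM in glycolytic WT and 585, 563, 524, 524 and 545 CPM in glycolytic ECKO libraries (0.20 ± 0.043, adjusted p = 0.00106). In oxidative muscle it held 561, 541, 559, 588 and 543 CPM in WT and 464, 432, 421, 428 and 431 CPM in ECKO libraries (-0.36 ± 0.043, adjusted p = 2.49e-07). Neither pair of groups overlapped. Rpl7a, a large-subunit protein and snoRNA host, likewise rose by 0.20 and fell by 0.28, with means of 463 CPM ± 18.1 and 533 CPM ± 9.97 in glycolytic WT and ECKO, and of 526 CPM ± 13.6 and 433 CPM ± 15.4 in oxidative WT and ECKO.

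Rps27l rose by 0.19 in glycolytic ECKO (adjusted p = 0.0154), a call lost without glycolytic WT library 1 (adjusted p = 0.0542), and fell by 0.43 in oxidative ECKO. Rps6, the substrate of the S6 kinases, rose by 0.17 (adjusted p = 0.0172), and that call was lost without glycolytic WT library 1 or 4 or glycolytic ECKO library 5 (adjusted p = 0.0587, 0.0618 and 0.0504). Rpsa, known also as the laminin receptor precursor, rose by 0.16 (adjusted p = 0.0223), and its call was lost without glycolytic ECKO library 1 or glycolytic WT library 5 (adjusted p = 0.0549 and 0.0725). The calls of Rps27l, Rps6 and Rpsa thus depended on single libraries. Among members of at least 4 CPM, the largest falls in glycolytic ECKO were those of Rps28 (-0.44 ± 0.06), Rpl37a and Rpl24 (both -0.42). Rps28 held 502, 494, 517, 521 and 549 CPM in WT and 373, 402, 380.4, 372 and 381 CPM in ECKO libraries, with no overlap (adjusted p = 2.9e-06). Of 10 endothelial markers 7 fell and 0 rose in glycolytic ECKO, with summed levels of 9187 to 9556 CPM in WT and 7722 to 7822 CPM in ECKO. The summed level of the 9 pericyte and smooth muscle markers went from 844 to 855 CPM in WT to 1986 to 2050 CPM in ECKO libraries, though 2 of the 9 rose and 1 fell by the test. Of 16 fibre markers 10 rose (67.4 to 74.7 CPM in WT, 156 to 162 CPM in ECKO), of 8 fibroblast markers 4 rose (50.8 to 59.6 and 121 to 128 CPM), and all 5 erythroid markers fell (3788 to 4011 and 2268 to 2491 CPM). The part of any of these in the falls and rises was not tested.

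**Figure D3:**
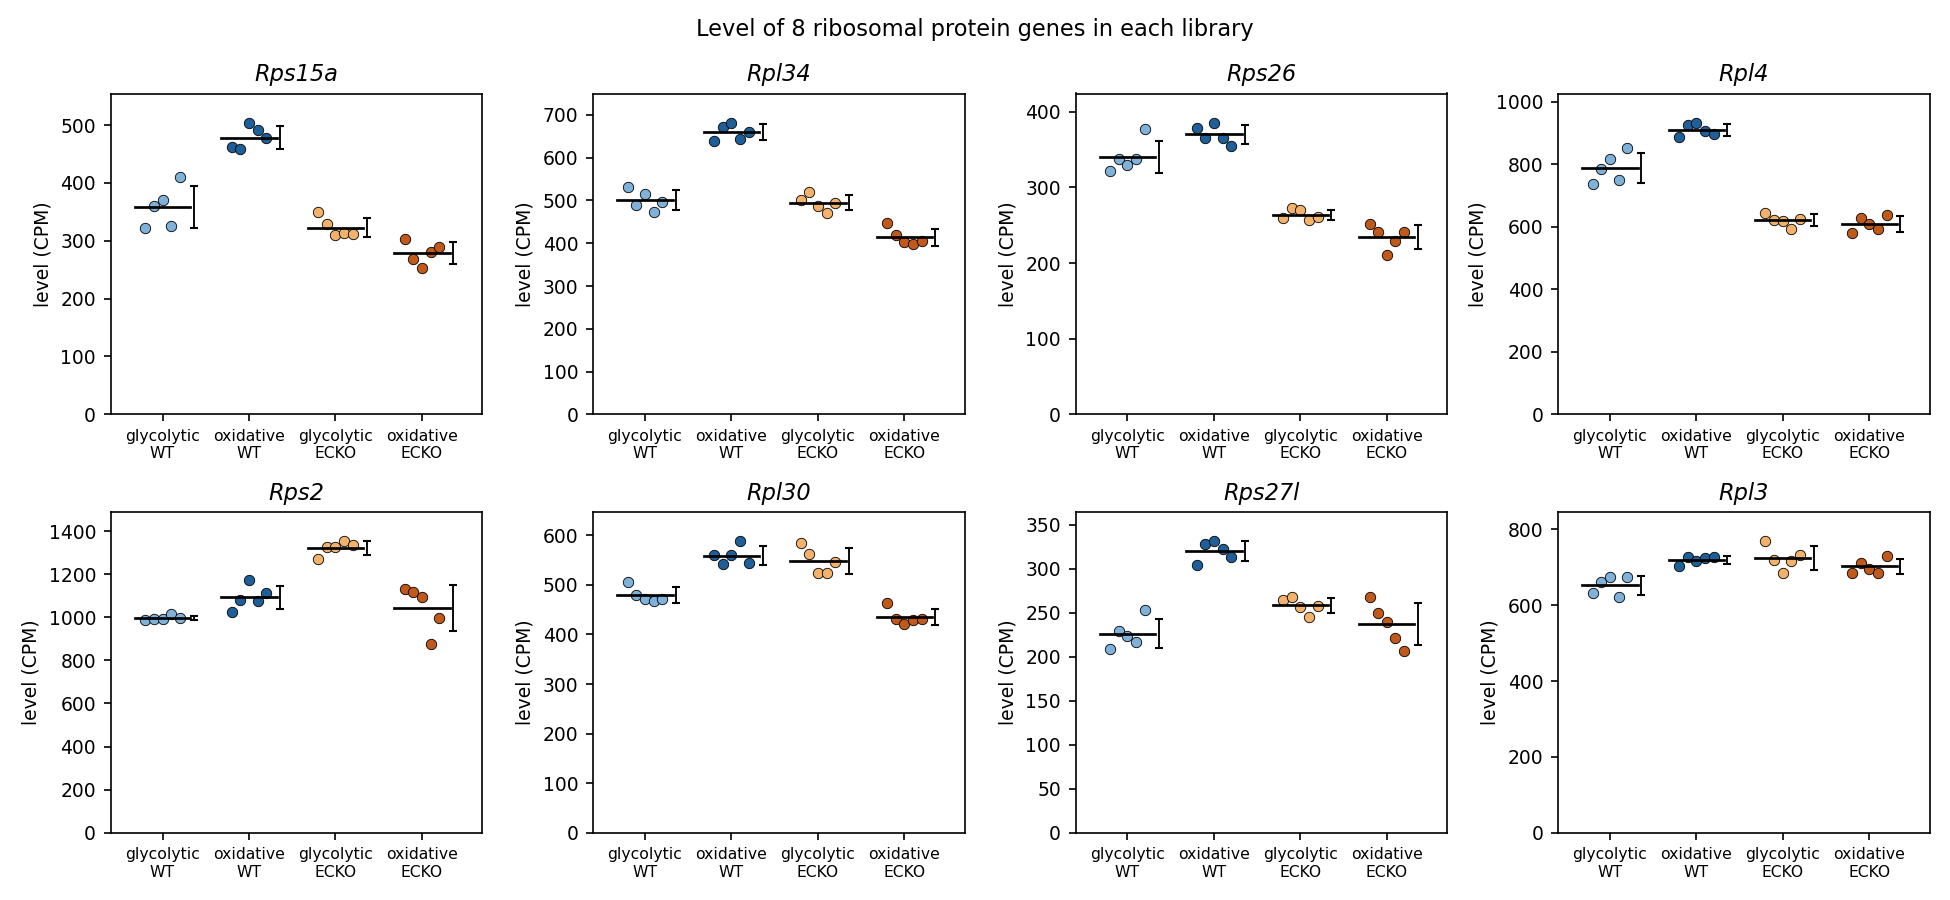
Level (CPM, y axis) of 8 members in each library by group, with means (lines) and SD (bars), n = 5. Rps15a and Rpl34 were called lower in ECKO in oxidative muscle and not called in glycolytic muscle, Rps26 and Rpl4 were called lower in both, and Rps2, Rpl30, Rps27l and Rpl3 have higher means in glycolytic ECKO than in glycolytic WT.

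The interaction asked whether the difference between ECKO and WT libraries is unlike in the muscles. Sex-linked RNA differed between the genotypes in each muscle and also between glycolytic and oxidative ECKO libraries. The interaction therefore cannot separate it from the deletion. It was called lower in 47 of 80 members and higher in 0, against 12.5% and 10.1% of all genes, with a median of -0.22. A negative value means that the fold change was lower in oxidative than in glycolytic muscle. Small-subunit genes made up 24 of the 47 calls, large-subunit genes 20 and stalk genes 3. Rpl34 had an interaction of -0.65 ± 0.062 (adjusted p = 1.09e-08), Rps15a of -0.63 ± 0.085 (adjusted p = 3.01e-06), Rps27l of -0.62 ± 0.082 (adjusted p = 2.27e-06), Rps18 and Rpl30 of -0.56 each, Rpl23 of -0.51 and Rps2 of -0.47.

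Read side by side, 38 members were lower in ECKO in both muscles, 28 were lower in oxidative and not called in glycolytic muscle, and 9 were lower in oxidative and higher in glycolytic muscle. The interaction was called in all 11 members that rose in glycolytic ECKO; that rise enters the interaction with a minus sign, so this count is largely fixed by their choice. It was not called in 28 of the 38 that fell in both. Rps28, Rpl24, Rpl37a and the X-linked Rps4x belonged to these 28. Across the 78 members of at least 4 CPM the effects in the 2 muscles had a Pearson correlation of 0.26 and a Spearman correlation of 0.24; members share libraries and scaling and are not independent. By group mean, oxidative WT was highest in 56 and oxidative ECKO lowest in 67 of the 78 members. In all, 36 members were both higher in oxidative than in glycolytic WT and lower in oxidative ECKO than in oxidative WT, a count in which both comparisons use the oxidative WT libraries. For the joint counts and group orders given here, the matching shares over all genes were not computed. They describe the members alone and do not set them apart from other genes.

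**Figure D4:**
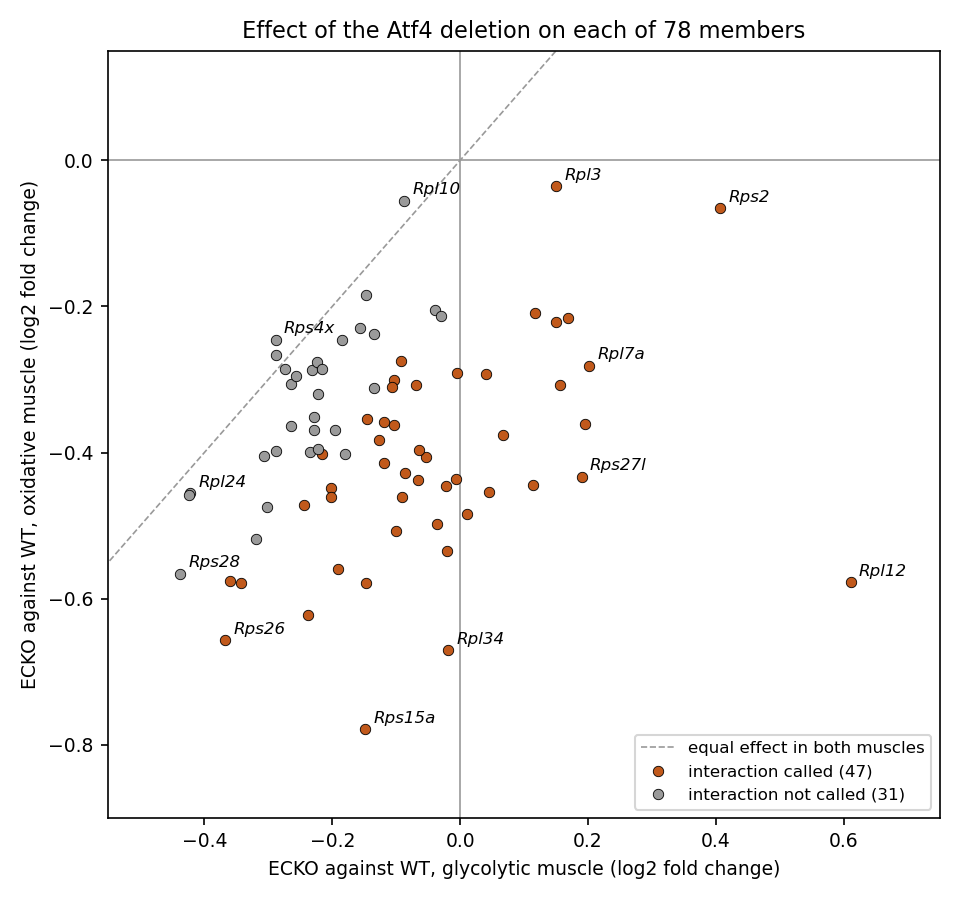
Log2 fold change of ECKO against WT in glycolytic muscle (x axis) and oxidative muscle (y axis) for 78 members, one point each, orange where the interaction was called (47) and grey where it was not (31). The cloud lies under 0 on the y axis and spreads over both sides of 0 on the x axis, and Rps2 and Rpl12 stand farthest to the right.

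Rpl12 and Rpl5 need their copies to be read. The product of Rpl12 forms the base of the stalk, yet the member row held only 14.4 CPM in glycolytic WT, while Gm10275, annotated as a transcribed processed pseudogene with 96.0% of its 31-base stretches in Rpl12, held 194 CPM. In the Rpl12 row 61.5% of counts on average lay in transcripts annotated as retained introns or as targets of nonsense-mediated decay (NMD). Row by row Rpl12 had the largest interaction, -1.19 ± 0.15 (adjusted p = 1.32e-06). Summed with Gm10275 it was -0.53, with -0.41 in oxidative (adjusted p = 2.87e-06) and 0.13 in glycolytic muscle (adjusted p = 0.101), and the rise in glycolytic ECKO was no longer called. With protein-coding transcripts alone the glycolytic value was -0.23 (adjusted p = 0.347). For Rpl5 the reads sat on Gm15500, another transcribed processed pseudogene. It held 708 CPM ± 56.5 in oxidative WT and 474 CPM ± 29.6 in oxidative ECKO libraries (-0.58, adjusted p = 1.68e-08), against 44.2 and 30.8 CPM in the Rpl5 row (-0.52). Summed with it, Rpl5 was not called in glycolytic muscle (-0.10, adjusted p = 0.18).

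Among the other copies, Rps27rt went from 28.3 CPM ± 3.52 to 7.01 CPM ± 8.71 in oxidative muscle (-1.99 ± 0.38, adjusted p = 0.000156); its 5 ECKO libraries held 22.4, 4.37, 2.79, 1.1 and 4.39 CPM, and library 1 stood beside the WT level. Summed with Rps27, whose own level is far higher, the value was -0.49. Rpl10-ps3 held 237 CPM in oxidative WT and 166 CPM in oxidative ECKO libraries, and the sum of Rpl10 and its copies was lower in oxidative ECKO (-0.16, adjusted p = 0.00353), where the Rpl10 row alone was not called. With all such copies added, an alternative chosen after the data had been seen, 76 members were lower in oxidative ECKO, 10 were higher and 37 lower in glycolytic ECKO, and 48 had a lower interaction.

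Paralogs restricted to other tissues stayed near the limit of detection. Rpl3l, the form of striated muscle, held at most 0.55 CPM in glycolytic WT, 0.892 CPM in oxidative WT, 0.775 CPM in glycolytic ECKO and 1.33 CPM in oxidative ECKO libraries and was not called in any comparison. Rpl39l, a testis form that differs from Rpl39 at 23 of 153 coding bases, held 0.876 CPM on average in glycolytic WT and 0.294 CPM in glycolytic ECKO libraries (-1.45, adjusted p = 0.0353), and single libraries of the 2 groups overlapped. Rpl36al, which differs from the X-linked Rpl36a at 39 of 318 coding bases and is broadly expressed, fell by 0.58 in oxidative ECKO, and Rpl36a fell by 0.37.

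The tables also allow a look at which transcripts of a member were counted. Of 487 member transcripts 258 are not annotated as protein-coding, among them 172 with a retained intron and 24 NMD targets. They took 6.21% ± 0.153 of the members' counts in glycolytic WT, 6.86% ± 0.287 in oxidative WT, 7.64% ± 0.938 in glycolytic ECKO and 6.16% ± 0.304 in oxidative ECKO libraries (SD, n = 5). Every glycolytic ECKO library, from 6.85% to 9.20%, lay above every glycolytic WT library, at most 6.41%, with library 2 at the top. Assignment between overlapping transcripts is an estimate, and these shares carry that error.

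Rpl3 had an order of groups other than that of the pool. Transcripts not annotated as protein-coding took 1.91% of its counts in glycolytic WT, 3.64% in oxidative WT, 4.67% in glycolytic ECKO and 4.35% in oxidative ECKO libraries, so that oxidative ECKO lay well above glycolytic WT, unlike in the members' pool. This was not particular to Rpl3. Rpl12, Rpl10a, Rps12 and Rps9 also had a higher share in oxidative ECKO than in glycolytic WT, while Rps20 and Rps16 had a lower one. In human cells RPL3 protein is known to steer its own transcript toward an NMD form. The NMD transcript Rpl3-205 held 4.37, 2.64, 2.58, 1.39 and 2.63 CPM in glycolytic WT and 12.5, 9.57, 8.68, 10.5 and 9.63 CPM in glycolytic ECKO libraries, with no overlap. It was high in oxidative muscle of both genotypes, at 9.39 CPM ± 1.36 in WT and 8.65 CPM ± 1.52 in ECKO, so that glycolytic WT alone was low. The retained-intron transcript Rpl3-204 held 6.81 CPM ± 0.994 in glycolytic WT, 11.3 CPM ± 2.13 in oxidative WT, 15.8 CPM ± 1.52 in glycolytic ECKO and 15.2 CPM ± 2.15 in oxidative ECKO. The main coding transcript, Rpl3-201, held 640.1 CPM ± 24.2, 693 CPM ± 8.69, 690.1 CPM ± 28.4 and 672 CPM ± 19.4 in the same order. These transcript levels were not tested.

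In Rpsa the NMD transcript Rpsa-206 took most of the counts. It held 411 CPM in glycolytic WT, 517 CPM in oxidative WT, 521 CPM in glycolytic ECKO and 385 CPM in oxidative ECKO libraries. Its glycolytic WT libraries, up to 479 CPM, lay under every glycolytic ECKO library, from 483 CPM, though the margin was small. The protein-coding transcripts together held 323 CPM ± 7.00 in glycolytic WT and 296 CPM ± 36.8 in glycolytic ECKO, and with those alone Rpsa was not called (-0.11, adjusted p = 0.312).

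**Figure D5:**
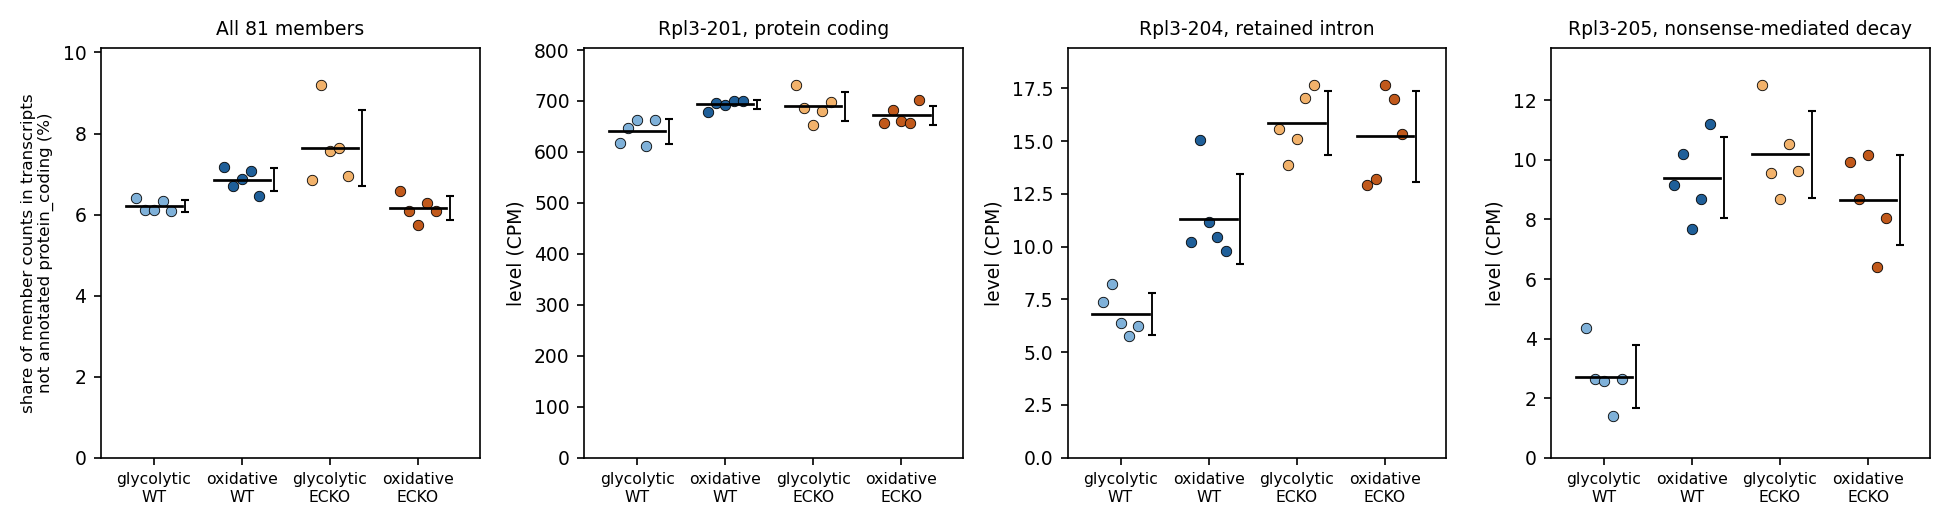
Share of member counts in transcripts not annotated as protein-coding (%, left) and level (CPM) of 3 Rpl3 transcripts in each library by group, with means (lines) and SD (bars), n = 5. Rpl3-205 averages 2.72 CPM in glycolytic WT and 8.65 to 10.2 CPM in the other groups, while the coding Rpl3-201 stays between 611 and 731 CPM.

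Members that carry small nucleolar RNA genes in their introns, 29 genes with 56 such RNAs, were compared with the 51 tested members that carry none. In oxidative ECKO 26 of 29 and 49 of 51 were lower, with medians of -0.40 and -0.37. In oxidative against glycolytic WT muscle 17 of 29 and 20 of 51 were higher. In glycolytic ECKO 11 hosts fell and 6 rose, against 28 and 5 of the others, and no test of these differences was made. The 9 members on a list of genes mutated in human Diamond-Blackfan anaemia, among them Rps19, Rps26, Rpl5 and Rpl11, were lower in oxidative ECKO in 9 of 9 cases and in glycolytic ECKO in 7 of 9, with medians of -0.36 and -0.22. The other 71 tested members were lower in 66 and 32 cases, with medians of -0.40 and -0.12, and in oxidative muscle the list's share was thus near that of the rest. The difference in glycolytic muscle was not tested, and the falls there include Rpl5, which was not called when summed with its copy Gm15500.

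Ribosomal protein and ribosomal protein-like genes outside the symbol rule moved alike in oxidative muscle. Of 6, among them Fau, Rps3a1, Rpl7l1 and Rps27rt, 6 fell in oxidative ECKO, against 17.4% of all genes. Rps27rt shares its whole coding sequence with Rps27, so its fall is not a case separate from that member. Fau, which encodes a ubiquitin-like fusion of a small-subunit protein, fell by 0.49 ± 0.042 in oxidative (adjusted p = 7.6e-10) and by 0.29 ± 0.042 in glycolytic muscle. Rpl7l1 fell by 0.18 in oxidative and rose by 0.15 in glycolytic muscle.

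The lists that follow are to be read beside all genes tested. Of these 17.4% fell and 14.6% rose in oxidative ECKO, and 15.1% fell and 13.9% rose in glycolytic ECKO. Among 16 further TOP mRNAs 13 fell and 0 rose in oxidative ECKO, with a median of -0.33, and 7 fell in glycolytic ECKO. Hnrnpa1, a splicing factor, fell by 0.90, Npm1, a nucleolar chaperone, by 0.54 and Naca, a chaperone subunit of nascent chains, by 0.39 in oxidative muscle. Elongation factors fell in 3 of 6 cases, Eef1b2 by 0.43, Eif5a by 0.42 and Eef1a1 by 0.32, and Eef2 was not called (0.05). Of 27 initiation factors 14 fell and 2 rose in oxidative ECKO, led by Eif3c (-1.02), Eif2s2 (-1.44) and Eif1a (-0.59), and in glycolytic ECKO 7 rose and 2 fell, with Eif1a at 0.57. A list of 15 genes of mTORC1 and its TOP control also held Myc, a transcription factor rather than a part of that control. Of these 15 genes 7 fell and 1 rose in oxidative ECKO. Among them were Eif4ebp1, a translation repressor and known ATF4 target, at -2.33, Rheb, the GTPase that activates mTORC1, at -0.86, and Myc at -0.65.

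The genes that assemble ribosomes went further apart between the muscles than the ribosomal proteins did in their medians. Of 30 ribosome biogenesis factors 23 rose and 0 fell in oxidative against glycolytic WT muscle, 21 fell and 0 rose in oxidative ECKO, and 16 rose and 2 fell in glycolytic ECKO, with medians of 0.36, -0.36 and 0.22. In glycolytic ECKO the ribosomal proteins had a median of -0.14, the opposite sign. Nop56, a core protein of box C/D small nucleolar particles, held 52.5, 61.6, 59.5, 64.2 and 68.7 CPM in glycolytic WT and 103, 109, 109, 100 and 103 CPM in glycolytic ECKO libraries, with no overlap (0.77 ± 0.069, adjusted p = 2.1e-09). Tsr1, a factor of small-subunit maturation, rose by 1.11 in the same comparison, and Ltv1, which also acts there, fell by 1.15 in oxidative ECKO. Of 14 RNA polymerase I genes 6 rose and 1 fell in glycolytic ECKO, 5 fell in oxidative ECKO and 9 had a lower interaction. Over all genes tested 13.9% rose and 15.1% fell in glycolytic ECKO, and 17.4% fell and 14.6% rose in oxidative ECKO. A lower interaction was called in 12.5%, and in the WT muscle comparison 16.4% were higher and 15.9% lower.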

How the data were processed

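For each library the authors deposited transcript-level estimated counts, TPM and effective lengths; kallisto and DESeq2 are named, without versions, in the submitters' processing notes, which give the build GRCh38.p13, a human assembly. The labels describe stranded mRNA libraries read from 1 end over 100 bases; whether quantification used strand was not stated in any source at hand. Of 129439 mouse transcript identifiers, 128643 were found in GENCODE M21 (GRCm38), leaving at most 0.221% of a library's counts unmatched. The deposited estimated counts were summed per gene and rounded; the deposited TPM were summed only to rank levels, and the deposited effective lengths entered as other values in 1 alternative.

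Tests used edgeR 4.0.16 (R 4.3.3; quasi-likelihood F-test, Benjamini-Hochberg adjustment) after filterByExpr and TMM scaling, with all 20 libraries in 1 fit of group means. Checked on simulated data for oxidative ECKO against WT over 13971 genes, it recovered 12 of 50 genes changed by 0.25 on the log2 scale, 45 of 50 at 0.5, 49 of 50 at 1 and 50 of 50 at 2, with 3 false calls. The members and lists were chosen with earlier results of these data known. Named were, per comparison, up to 8 called members of at least 4 CPM with the largest rise and fall, the 10 highest by TPM, paralogs with parents, the anaemia list, and up to 4 list genes with the smallest adjusted p; of these a part is described, and results that need items withheld for evaluation are not reported here. Other list genes, Rps4x and the single transcripts and copies were picked after their values had been seen. A copy is a gene that holds at least 20% of a member's 31-base stretches and has at least 50% of its own in it. Alternatives are given with the limits.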

Additional observations from a re-analysis of the deposited data

Results flagged for a closer look

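Of 84 groups of 5 libraries examined, 3 held a library far from the others by Dixon's criterion (0.71 of the range), and chance flags about 1 in 20. They were Rpl30 in oxidative ECKO library 1 (464 CPM), Rps26 in glycolytic WT library 5 (377 CPM) and Rps27 in glycolytic ECKO library 2 (747 CPM).

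The effect of the deletion differed between the muscles by the interaction test in these named members, each with a negative log2 interaction: Rpl12 -1.19, Rpl34 -0.65, Rps15a -0.63, Rps27l -0.62, Rps18 -0.56, Rpl30 -0.56, Rpl23 -0.51 and Rps2 -0.47. The value of Rpl12 concerns its own row, and with protein-coding transcripts alone it was -0.16 (adjusted p = 0.717). Sex-linked RNA also differed between these groups, and its part in the interaction values was not tested.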

How the results depend on the processing

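The alternatives were RLE and upper-quartile factors, plain totals, DESeq2 1.42.0, limma-voom 3.58.1, an effective-length offset, fits without the low-count filter, on only those groups compared or with a replicate block, named copies added, protein-coding transcripts only and leaving out each library. Counts of called members that moved by over 1.5 times did so as follows. Plain library totals gave 8 higher and 18 lower members in the WT muscle comparison, with a median of -0.0227, and 1 higher in oxidative ECKO. The effective-length offset gave 24 lower members between muscles in ECKO and 7 higher in glycolytic ECKO, and no filter gave 5 higher there. With protein-coding transcripts only, Rpl12 turned to -0.10 in the WT muscle comparison and to -0.23 in glycolytic ECKO, and Rpsa to -0.11 in glycolytic ECKO. The members' share of counts was 4.78%, 5.17%, 4.64% and 4.22% (glycolytic WT, oxidative WT, glycolytic ECKO, oxidative ECKO) without mitochondrial and CT010467.1 counts, and with copies by 31-base stretches it was 4.06% in glycolytic and 3.51% in oxidative ECKO. The cause was not tested. Leaving out single libraries gave 31 to 43 higher members between muscles in WT, 29 to 42 lower in ECKO, 74 to 76 lower in oxidative ECKO, 8 to 11 higher and 32 to 41 lower in glycolytic ECKO, and 39 to 54 lower interactions. It turned none of 48 named values in 960 refits and ended a call in 7. Libraries with the same replicate number showed little common deviation (30 pairs, correlations of -0.07 to 0.10, best match in 17 of 60). Weak correlations cannot exclude that the same animals stand behind equal numbers, and the labels leave this open. With the replicate block 75 members were lower in oxidative ECKO and 46 had a lower interaction. Depth limits Rpl3l, Rpl39l and Rpl10l.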
